A study of Mus musculus with 6 samples.

Results

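The RNA of 9 genes was followed, the kinases Jak1, Jak2 and Jak3 and the transcription factors Stat2, Stat3, Stat4, Stat5a, Stat5b and Stat6. They were taken by gene symbol, with every probe set that the platform's annotation gives to 1 of these symbols alone, which made 19 probe sets for 9 genes among 18193 genes measured. The cells were LSK cells, the lineage-negative, cKit-positive and Sca1-positive fraction of bone marrow that holds hematopoietic stem cells and multipotent progenitors. The 3 N1IC mice carried Mx1-cre together with a lox-stop-lox N1-IC allele, from which Cre releases the active intracellular part of Notch1. The 3 WT mice carried Mx1-cre alone. Both groups received polyIC, 3 injections of 20 mcg per g of body weight from an age of 21 days, and their marrow was sorted when 2 weeks had passed since the final injection, at 5 weeks of age. All 3 N1IC mice were female, while 2 WT mice were male and 1 was female. Mx1-cre acts in every interferon-responsive cell and not in LSK cells alone. The labels' treatment text names floxed Ncstn in place of N1-IC, and the groups here follow the genotype labels.

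Cytokines signal by drawing receptor chains together at the cell surface. JAK kinases bound to the tails of those chains then phosphorylate each other and the receptor, STAT proteins dock there and are phosphorylated in turn, and STAT dimers move to the nucleus and bind DNA. Jak3 pairs with the common gamma chain of the lymphoid cytokine receptors, Jak2 serves the receptors for erythropoietin and growth hormone, and Jak1 serves both the gamma chain and interferon families. Arrays measure RNA, so phosphorylation, the active state of these proteins, was not observed.

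In the sorted cells 1 of the 9 JAK and STAT genes, Jak3, was lower in N1IC than in WT, and none was higher. The test was limma with Benjamini-Hochberg adjustment over all genes, by which 11.8% of all genes passed, 8.31% lower and 3.47% higher, so the count of 1 in 9 is near the background. At an unadjusted p under 0.05, 1 of the 9 (Jak1) was higher and 2 (Jak3 and Stat6) were lower, where 9.65% of all genes were higher and 16.9% lower. The median log2 fold change of the 9 genes was -0.02, and that of all genes -0.01. The median size of the change, whichever its sign, was 0.22 for the 9 genes and 0.16 for all genes. Around them, 12 of 31 receptor chains passed. Il2ra was 113-fold higher in N1IC and Csf3r 13.0-fold lower.

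The median probe set had an intensity of 89.0 to 92.4, depending on the array, and 3 arrays a group limit the precision. All levels are log2 intensities, and p-values measure the spread between these mice. Marker lists of blood lineages differed between the groups, beside 3.47% of all genes higher and 8.31% lower. Of 14 T-lineage genes 11 were higher, and their mean log2 level was 10.49 to 10.79 on N1IC arrays, against 7.26 to 8.31 on WT arrays. Of 14 stem cell genes 13 were lower, with a mean level of 9.02 to 9.07 in N1IC and 10.80 to 11.22 in WT. Among WT arrays, replicate 1 was far lower in genes of mature neutrophils and monocytes, at a mean of 9.09 where the highest WT array had 11.05, and in natural killer cell genes, at 6.60 where the highest had 9.08. Kit, a marker of the sort, was at means of 11.51 in N1IC and 11.76 in WT. All its N1IC arrays lay below all its WT arrays, with no call. In bulk RNA, fewer cells of a type and less RNA per cell cannot be told apart. The mean level of the 9 JAK and STAT genes was 10.71 to 10.88 in N1IC and 10.86 to 10.97 in WT, and the part of these lineage differences in any result below was not tested.

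**Figure D1:**
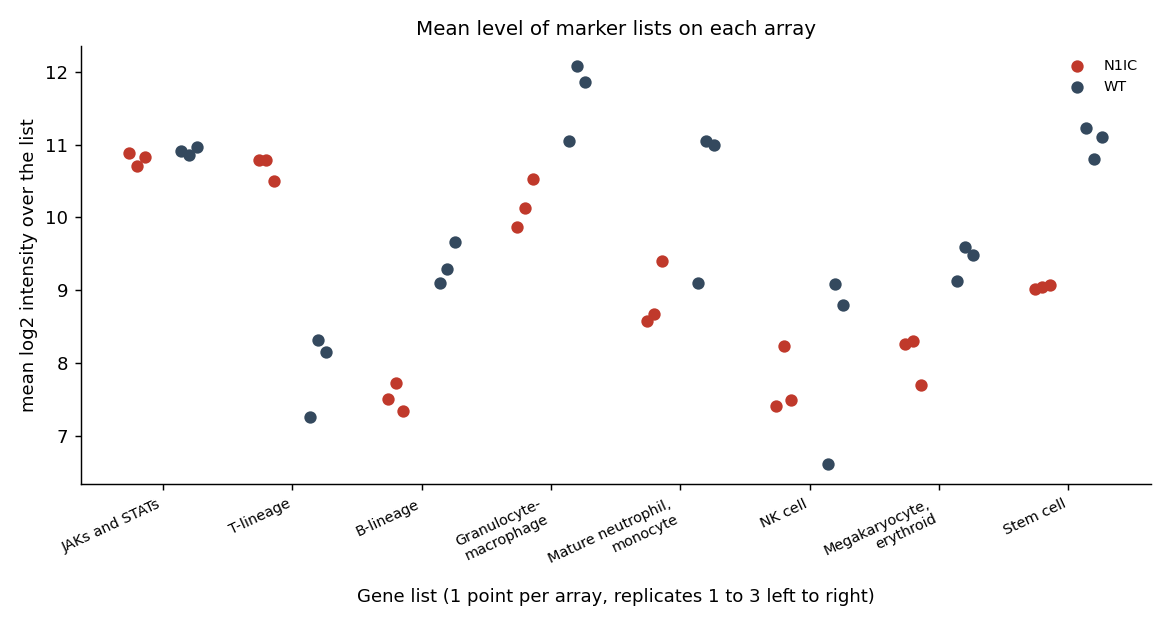
Mean log2 intensity of each gene list on each array, N1IC arrays in red on the left and WT arrays in dark blue on the right of each list. The JAK and STAT genes stay between 10.71 and 10.97 on all 6 arrays, while the T-lineage and stem cell lists separate the groups, and WT replicate 1 is the lowest WT array in mature neutrophil and monocyte genes, at 9.09, and in natural killer cell genes, at 6.60.

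Sequences upstream of start sites of 4 of these genes are shown as a description, and no RNA level or call rests on them. Jak3 is the gene that passed the test, Stat2 is the factor of the interferon response, and Stat5a and Stat5b are neighbouring genes of similar sequence whose dimmer probe sets both had positive fold changes. Each sequence is the 250 bases before a start site in RefSeq, assembly GRCm38.p6, printed from 5′ to 3′ on the strand of the gene. In Stat2 the capitals mark a match to the core of the interferon-stimulated response element, GAAA followed after any 2 bases by another GAAA, which here lies on the opposite strand. In Stat5a and Stat5b they mark the stretch in which both genes align, and Jak3 has no capitals because no searched motif matched.
Jak3, chr8:71676133-71676382, plus strand: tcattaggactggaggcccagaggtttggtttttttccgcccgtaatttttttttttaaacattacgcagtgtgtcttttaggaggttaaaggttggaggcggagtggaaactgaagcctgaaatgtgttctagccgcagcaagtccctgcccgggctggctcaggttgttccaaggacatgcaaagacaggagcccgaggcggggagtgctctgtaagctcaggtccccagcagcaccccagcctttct
Stat2, chr10:128270248-128270497, plus strand: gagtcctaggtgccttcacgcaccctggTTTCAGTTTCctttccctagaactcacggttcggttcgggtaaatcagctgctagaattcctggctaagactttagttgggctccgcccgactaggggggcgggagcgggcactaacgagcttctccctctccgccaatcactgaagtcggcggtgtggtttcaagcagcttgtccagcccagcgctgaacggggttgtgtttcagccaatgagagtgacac
Stat5a, chr11:100860234-100860483, plus strand: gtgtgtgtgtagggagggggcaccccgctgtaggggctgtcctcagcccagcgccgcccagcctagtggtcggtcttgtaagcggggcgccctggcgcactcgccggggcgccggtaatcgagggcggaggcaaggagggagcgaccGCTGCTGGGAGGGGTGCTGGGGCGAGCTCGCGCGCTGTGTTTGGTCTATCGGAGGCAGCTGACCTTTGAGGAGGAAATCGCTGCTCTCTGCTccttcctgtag
Stat5b, chr11:100822571-100822820, minus strand: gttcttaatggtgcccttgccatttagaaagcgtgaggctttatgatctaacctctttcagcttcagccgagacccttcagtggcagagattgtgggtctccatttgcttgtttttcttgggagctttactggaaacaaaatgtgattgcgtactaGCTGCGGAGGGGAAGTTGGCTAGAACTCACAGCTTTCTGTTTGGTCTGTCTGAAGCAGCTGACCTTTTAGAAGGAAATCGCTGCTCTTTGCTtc

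All 9 genes matched the RefSeq promoter table, with 12 start sites in all. The STAT motif TTCNNNGAA was in 0 of the 12 windows and the Rbpj motif TGGGAA in 0 of 12, both strands searched. Over all 32851 promoters, windows of the same length held the STAT motif in 7.02% and the Rbpj motif in 21.6% of cases. Rbpj is the DNA-binding partner of active Notch, and an absent match says only that these letters are not in these windows. The response element core, a motif added after the sequences had been read, was in 2 of the 12 windows, against 2.98% of all promoters. Because it was added after that reading, these values cannot show an excess. The matches belong to Stat2, at bases -222 to -213 from the start site, and to 1 start site of Stat4, at bases -97 to -88. A match describes the sequence and is not a shown binding site.

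Stat3, Stat5a and Stat5b lie side by side on mouse chromosome 11. Stat5b spans chr11:100780731-100859004, Stat5a spans chr11:100859351-100885169 and Stat3 spans chr11:100886806-100939594, so that 346 bases separate Stat5b from Stat5a and 1636 bases separate Stat5a from Stat3. The windows printed above for Stat5a and Stat5b lie inside these spans, before start sites within each gene, and not in the bases between the genes. The 2 windows align over 94 positions, of which 74 are identical, or 78.7%. Each gene has 2 start sites, and these windows were picked as the pair with the highest alignment score, 51. The other 3 pairs scored 16 to 23, with 62.1% to 67.3% of positions identical. The aligned stretch runs from -103 to -12 in Stat5a and from -94 to -3 in Stat5b. Near-identical genes can share signal on an array, and how far the probes of Stat5a and Stat5b do so was not tested.

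Jak3, the kinase that works with the common gamma chain, was lower in N1IC. It lies at chr8:71676383-71690577. Its log2 level was 8.74, 8.63 and 9.16 in N1IC, against 9.82, 9.43 and 9.98 in WT. The highest N1IC array lay below the lowest WT array, so the groups do not overlap. The mean was 8.84 ± 0.28 in N1IC and 9.74 ± 0.28 in WT (SD, n = 3 each). The log2 fold change was -0.90 ± 0.20 (SE), a level 1.87-fold lower in N1IC (adjusted p = 0.0391 by limma, adjusted over all genes). Of all genes, 9.77% had a larger change in either direction.

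The call of the gene Jak3 was lost without N1IC replicate 1, N1IC replicate 2, WT replicate 1 or WT replicate 3, where the log2 fold change was -0.86 to -0.78 and the limma adjusted p was 0.0893 to 0.122. With sex as a covariate, a fit that sets N1IC against the 1 female WT array, the change was -0.59 (adjusted p = 0.305 by limma), and with array weights it was -0.84 (adjusted p = 0.0504). Jak3 has 1 probe set of its own, which had an adjusted p of 0.0514 when tested among all 45037 probe sets in place of genes. A further 2 probe sets are annotated to Jak3 and Insl3 together, so their signal cannot be given to either, and they were left out of the 19. Their log2 fold changes were -0.61, without overlap, and -0.50, with overlap (adjusted p = 0.0778 by limma and 0.387). The genes whose 6 values, centred on their own mean, lay closest to those of Jak3 were Hid1, Snx8 and Dipk1b. Their root mean square distances over the 6 arrays were 0.0648, 0.0890 and 0.0989 on the log2 scale. With the mean of all probe sets the log2 fold change of Hid1 was -0.43 in place of -0.88.

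Jak1, the kinase that partners Jak3 at the gamma chain receptors, was at 11.88, 11.93 and 11.80 in N1IC, against 11.72, 11.65 and 11.59 in WT. All 3 N1IC arrays lay above all 3 WT arrays, with a log2 fold change of 0.22 ± 0.08 (SE), but the test was not passed (adjusted p = 0.146 by limma). The other 2 probe sets of Jak1 were divided. One gave -0.25, with N1IC below WT on all arrays, and the third 0.28, with overlapping arrays. With the mean of its 3 probe sets, the log2 fold change of Jak1 was 0.08.

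Jak2, the kinase of the erythropoietin and growth hormone receptors, was at 11.77, 11.80 and 11.44 in N1IC, against 11.87, 11.94 and 12.05 in WT. The groups do not overlap, and N1IC replicate 3 was the lowest array. The log2 fold change was -0.29 ± 0.12 (SE), with a 95% interval of -0.59 to 0.01 (adjusted p = 0.201 by limma). A dimmer probe set of Jak2 gave 0.01, with overlapping groups.

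**Figure D2:**
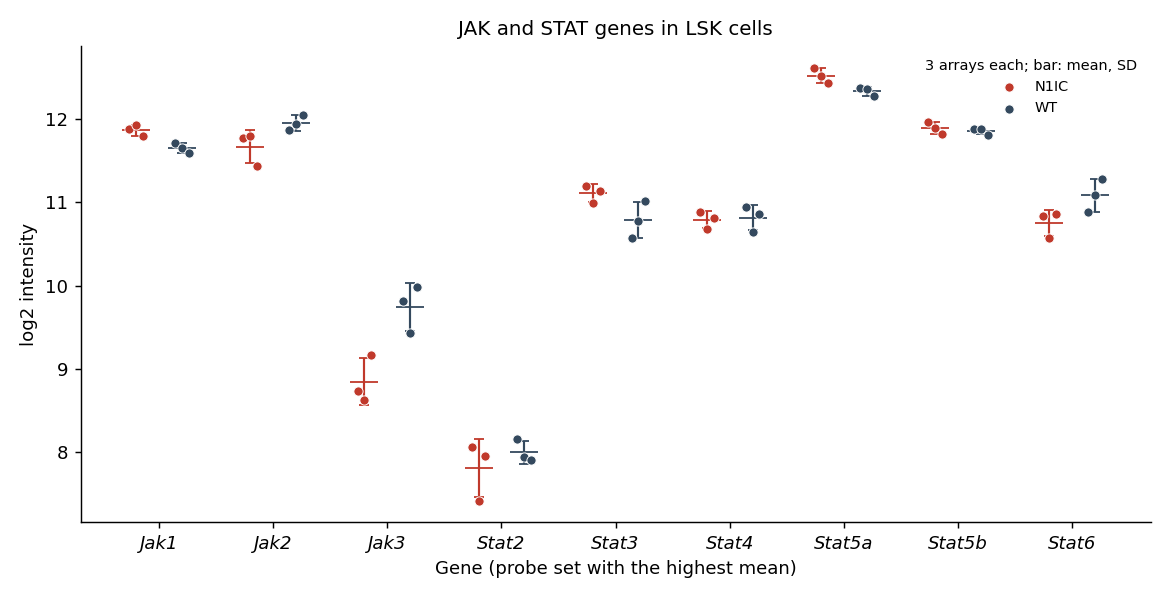
Log2 intensity of the 9 JAK and STAT genes on their brightest probe sets, with 3 N1IC arrays in red on the left and 3 WT arrays in dark blue on the right of each gene, and bars for mean and SD. Jak3 shows the widest gap between the group means, at 8.84 in N1IC and 9.74 in WT, while Stat4 and Stat5b overlap.

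Among the STAT factors, Stat5a and Stat5b transmit signals of interleukin 2, interleukin 7 and other cytokines. Stat5a was at 12.62, 12.52 and 12.43 in N1IC, against 12.37, 12.36 and 12.27 in WT, on its brighter probe set. Every N1IC array lay above every WT array, with a log2 fold change of 0.19 ± 0.08 (SE) that did not pass (adjusted p = 0.219 by limma). Its dimmer probe set was at 7.26, 7.41 and 7.46 in N1IC, against 6.85, 6.72 and 6.84 in WT. In the fit of single probe sets it was higher, by 0.58 ± 0.09 (SE) on the log2 scale (adjusted p = 0.0212 by limma). It was the only one of the 19 probe sets to pass, where 7.92% of all probe sets passed, 3.16% higher and 4.76% lower. At an unadjusted p under 0.05, 4 of the 19 were higher and 2 lower, where 11.4% of all probe sets were higher and 12.0% lower.

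With the mean of both probe sets, Stat5a as a gene passed too, at a log2 fold change of 0.38 (adjusted p = 0.0195 by limma). The call on the dimmer probe set held in 7 of 14 alternatives. It was lost, among others, without N1IC replicate 2, N1IC replicate 3, WT replicate 2 or WT replicate 3, with a limma adjusted p of up to 0.0753, with an intensity trend, and with sex as a covariate (adjusted p = 0.114). Stat5b gave a like pair of readings. Its brighter probe set was at 11.97, 11.89 and 11.82 in N1IC, against 11.88, 11.88 and 11.81 in WT, and the groups overlap. Its log2 fold change of 0.04 had a 95% interval of -0.15 to 0.22, and the mean of both probe sets gave 0.38, without a call. Its dimmer probe set was at 7.36, 6.96 and 7.40 in N1IC, against 6.64, 6.64 and 6.27 in WT. These groups do not overlap, and the log2 fold change of 0.72 ± 0.17 (SE) did not pass (adjusted p = 0.0580 by limma). For both genes the probe set with the lower signal had the larger fold change, and which part of the transcripts each probe set reads was not analysed here.

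Stat3 carries the signal of the interleukin 6 family and of granulocyte colony-stimulating factor. It was at 11.20, 10.99 and 11.14 in N1IC, against 10.58, 10.78 and 11.01 in WT. The groups overlap on this probe set, where WT replicate 3 lay above the lowest N1IC array. The log2 fold change was 0.32 ± 0.13 (SE) (adjusted p = 0.192 by limma). All 4 probe sets of Stat3 had a positive log2 fold change, between 0.05 and 0.61, and none passed. The one with the largest change was at 9.71, 9.58 and 9.87 in N1IC, against 9.19, 8.84 and 9.29 in WT, without overlap (adjusted p = 0.0628 by limma, over all probe sets).

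Stat6, the factor of interleukins 4 and 13, had a negative fold change on its brighter probe set. It was at 10.83, 10.57 and 10.86 in N1IC, against 10.89, 11.09 and 11.29 in WT, and the groups do not overlap. The log2 fold change was -0.33 ± 0.14 (SE) and did not pass (adjusted p = 0.186 by limma). The dimmer probe set gave 0.08, with overlapping arrays. Stat4, the factor of interleukin 12, was at 10.88, 10.68 and 10.82 in N1IC, against 10.94, 10.64 and 10.86 in WT. Its groups overlap, and its log2 fold change of -0.02 had a 95% interval of -0.29 to 0.24. That sign turned with sex as a covariate, with array weights and without any of 3 single arrays.

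Stat2, which joins Irf9 in the complex that interferon activates, was at 8.06, 7.41 and 7.95 in N1IC, against 8.16, 7.93 and 7.90 in WT. N1IC replicate 2 lay below all other arrays, and the groups overlap. The log2 fold change was -0.19 ± 0.19 (SE) (adjusted p = 0.592 by limma), and the dimmer probe set gave 0.13. Over the 9 genes, the 3 N1IC arrays lay wholly above or below the 3 WT arrays in 5, and over the 19 probe sets in 10, where 32.8% of all genes and 29.5% of all probe sets did so.

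**Figure D3:**
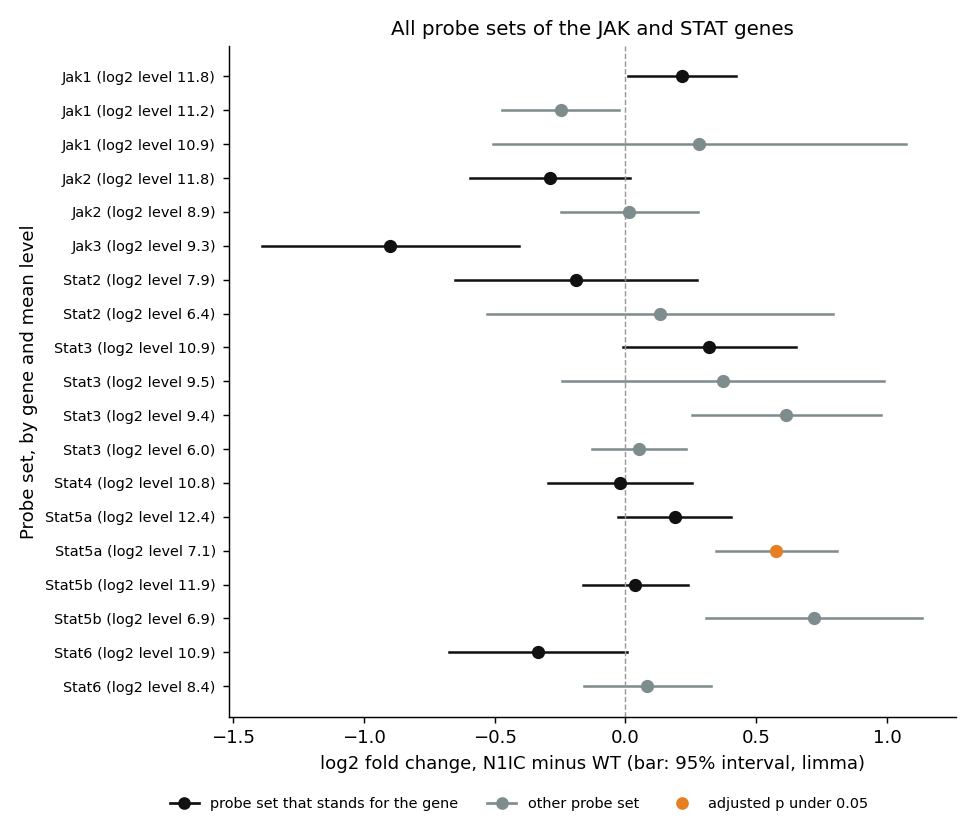
Log2 fold change, N1IC minus WT, of all 19 probe sets of the 9 genes, with 95% intervals from the limma fit over all probe sets and the mean log2 level of each probe set beside its name. The dimmer Stat5a probe set at 0.58 is the one that passed the test over all probe sets, and Jak3 lies lowest at -0.90.

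The receptor chains that carry JAKs, or share complexes with those that do, were measured beside them. Of 31 measured chains 12 passed, 3 higher and 9 lower in N1IC, against 11.8% of all genes. Their median log2 fold change was -0.53. Il2ra, which makes the interleukin 2 receptor high in affinity, was at 13.11, 13.15 and 12.98 in N1IC, against 5.99, 6.06 and 6.73 in WT (adjusted p = 0.000107 by limma). Both chains of the interleukin 12 receptor, which signals through Jak2 and Stat4, were higher. Il12rb2 was at 8.82, 8.93 and 8.83 in N1IC, against 6.32, 6.90 and 7.11 in WT, or 4.25-fold higher (adjusted p = 0.00328 by limma). Il12rb1, named after its values were seen, was 2.15-fold higher.

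Among the chains that were lower, Csf3r, through which granulocyte colony-stimulating factor acts, was at 5.76, 5.75 and 6.33 in N1IC, against 9.48, 9.58 and 9.88 in WT. Il6ra, the binding chain for interleukin 6, was at 6.60, 6.80 and 7.57 in N1IC, against 9.26, 9.38 and 9.66 in WT. No array of either group crossed into the other for these genes. Both receptors signal through Stat3, which did not pass. Ghr, the growth hormone receptor, was 4.21-fold lower on the brightest of 3 probe sets, of which 1 had a positive fold change. With the mean of all probe sets the log2 fold change was -1.06 for Ghr, in place of -2.07, and -1.63 for Il6ra, in place of -2.44, and both still passed. Il27ra, the interleukin 27 receptor, was 1.94-fold lower, at 9.91 ± 0.11 in N1IC and 10.87 ± 0.08 in WT (SD, n = 3 each). Of the gamma chain family, Il4ra was 1.97-fold lower and Il21r, named after its values were seen, 1.85-fold lower. Il7r, the interleukin 7 receptor of lymphoid progenitors, was at 12.11, 12.07 and 11.69 in N1IC, against 9.81, 11.07 and 10.98 in WT, and it did not pass (adjusted p = 0.0656 by limma). With the mean of all probe sets the gene Il7r was higher, at a log2 fold change of 1.73 (adjusted p = 0.0347 by limma). The other chains that passed, Csf2rb, Il10rb and Ifnar1, were 2.36-fold lower, 2.23-fold lower and 1.24-fold lower, and were named after their values were seen.

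Beside 8.31% of all genes, 7 of 14 granulocyte-macrophage genes were lower. Their mean level was 9.87 to 10.53 in N1IC and 11.05 to 12.08 in WT, and Csf3r and Csf2ra are on both lists. Without WT replicate 2 or WT replicate 3, 5 chains were lower in place of 9. Over all genes, 1025 and 835 were lower in these fits, in place of 1512. With sex as a covariate, which leaves 1 WT array to set against N1IC, fewer genes of both lists passed, and fewer of all genes. Without WT replicate 1, the array low in mature myeloid genes, 4 chains were higher and 10 lower. In that fit 509 of all genes were higher and 1420 lower.

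**Figure D4:**
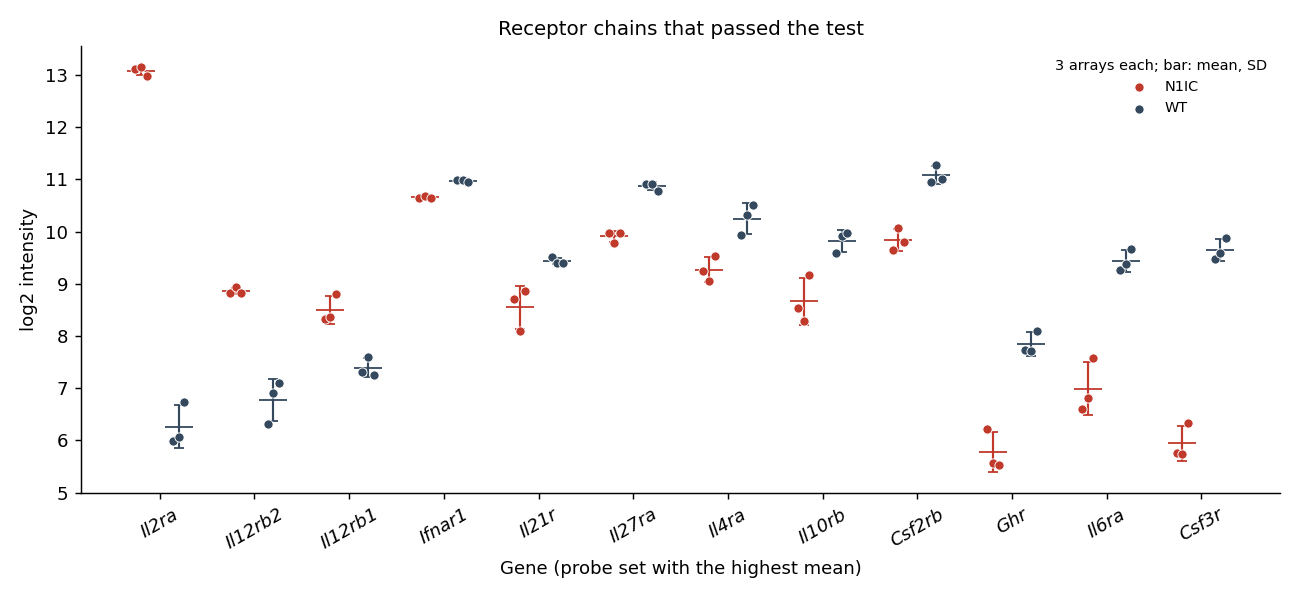
Log2 intensity of the 12 receptor chains that passed the limma test, ordered by fold change, with 3 N1IC arrays in red on the left and 3 WT arrays in dark blue on the right, and bars for mean and SD. Il2ra, Il12rb2 and Il12rb1 are higher in N1IC and the other 9 are lower, with Il2ra the furthest apart at 13.08 in N1IC and 6.26 in WT.

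Of 22 measured cytokines that act through these receptors, 1 was higher and 2 were lower in N1IC, with a median log2 fold change of 0.12. Their levels ran from percentile 4.20 of all genes (Il3) to 74.9 (Osm). Many were low, so the count and the median rest in part on genes of low signal. Over all genes, 3.47% were higher and 8.31% lower. Il12a, a subunit of interleukin 12, was at 7.30, 7.03 and 8.05 in N1IC, against 10.51, 10.72 and 10.82 in WT. It was 9.33-fold lower (adjusted p = 0.00196 by limma), and it passed under all 15 alternative settings. Il15, a gamma chain cytokine, was 2.51-fold lower. Il10, an anti-inflammatory cytokine, was at 5.86, 6.09 and 7.37 in N1IC, against 4.87, 4.82 and 4.27 in WT. Its level is low, at percentile 31.8 of all genes, and its call (adjusted p = 0.0467 by limma) held in 6 of 14 settings.

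Of 21 inhibitors of the pathway 1 was higher and 4 were lower, with a median log2 fold change of 0.05. Among all genes 3.47% were higher and 8.31% lower. Socs2, which STAT5 induces, was at 10.09, 11.13 and 10.61 in N1IC, against 11.73, 12.12 and 12.29 in WT, or 2.71-fold lower (adjusted p = 0.0281 by limma). That is the brightest of 6 probe sets, of which 4 had negative and 2 positive fold changes, and their mean gave a log2 fold change of -0.75 in place of -1.44, which still passed. Socs3, which restrains the interleukin 6 and Csf3r signals, was at 9.27, 9.28 and 9.29 in N1IC, against 9.81, 10.24 and 10.33 in WT, or 1.80-fold lower (adjusted p = 0.0187 by limma). In both genes all N1IC arrays lay below all WT arrays. Socs5, another member of that family, had a log2 fold change of -0.93 (adjusted p = 0.0238 by limma), and Pias3, a protein inhibitor of Stat3, of -0.61 (adjusted p = 0.0187 by limma). Socs1, an inhibitor of JAK kinases, was 1.31-fold higher, at 5.65 ± 0.12 in N1IC and 5.26 ± 0.08 in WT (SD, n = 3 each). That is a low level, at percentile 30.8 of all genes. The call of Socs1 (adjusted p = 0.0480 by limma) held in 3 of 14 settings. Cish, another STAT5-induced inhibitor, and the adaptor Sh2b3, which restrains Jak2, did not pass, at -0.62 and 0.20. With sex as a covariate, which leaves 1 WT array to set against N1IC, the calls of the inhibitors were lost, and calls over all genes fell too. Without any 1 array 0 to 3 of the 21 were lower and none was higher. Of all 18193 genes, 835 to 1420 were then lower and 332 to 509 higher.

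Genes known as targets of each STAT were counted next, from lists in which several genes answer to other regulators too. Of 15 STAT5 targets 1 was higher and 4 were lower, where 3.47% of all genes were higher and 8.31% lower. The median of the list was -0.42. The higher one was Il2ra. The lower ones were Socs2, Pim2, a survival kinase, Tnfrsf13b, a receptor of the TNF family, and Id1, an inhibitor of helix-loop-helix factors. Pim2 was at 8.14, 7.95 and 8.08 in N1IC, against 8.99, 9.39 and 9.29 in WT. Its log2 fold change was -1.16 ± 0.13 (SE) (adjusted p = 0.00436 by limma). Pim1, a related kinase, and the survival gene Bcl2l1 did not pass, at 0.34 and -0.56. Without any 1 array 1 to 3 of the targets were lower, where 835 to 1420 of all 18193 genes were.

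Of 13 STAT3 targets 3 were lower and none was higher by limma (1 higher and 5 lower at an unadjusted p under 0.05, which 9.65% and 16.9% of all genes reached), with a median of -0.03. They were Socs3, Il4ra and Tnfrsf1a, a receptor for tumour necrosis factor, which was 2.56-fold lower. Of 16 STAT4 and STAT6 targets 2 were higher and 2 lower, with a median of -0.33. Beside both lists, 3.47% of all genes were higher and 8.31% lower by limma. Gata3, a transcription factor of T cell development that is also known as a target of Notch, was at 11.28, 11.33 and 11.30 in N1IC, against 8.59, 8.60 and 8.70 in WT. It was 6.39-fold higher (adjusted p = 8.80e-05 by limma). Il12rb2 was the other higher gene, and Hlx, a homeobox factor, was 2.92-fold lower beside Il4ra.

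Of 22 interferon-induced genes of the Stat2 complex 2 were higher and 1 was lower, with a median of 0.01. Across all genes, 3.47% were higher and 8.31% lower. Irf1, a factor of the interferon response, was at 12.28, 11.71 and 12.45 in N1IC, against 10.99, 11.25 and 11.36 in WT, or 1.92-fold higher (adjusted p = 0.0431 by limma). Oasl1, an antiviral gene, was 1.45-fold higher, and the membrane protein gene Ifitm3 was 1.30-fold lower. The calls of Irf1, Oasl1 and Ifitm3 held in 8, 13 and 7 of 15 alternatives. Irf9, the partner of Stat2, was at 10.36 ± 0.33 in N1IC and 10.36 ± 0.23 in WT (SD, n = 3 each). Usp18, an interferon-induced inhibitor, was at 10.18 ± 0.42 in N1IC and 9.97 ± 0.14 in WT (SD, n = 3 each), and neither passed. With sex as a covariate, which leaves 1 WT array to set against N1IC, the calls of this list were lost. Calls over all genes fell in that fit too. Without any 1 array 1 or 2 of the 22 were higher and 0 or 1 lower. Over all 18193 genes, 332 to 509 were then higher and 835 to 1420 lower.

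**Figure D5:**
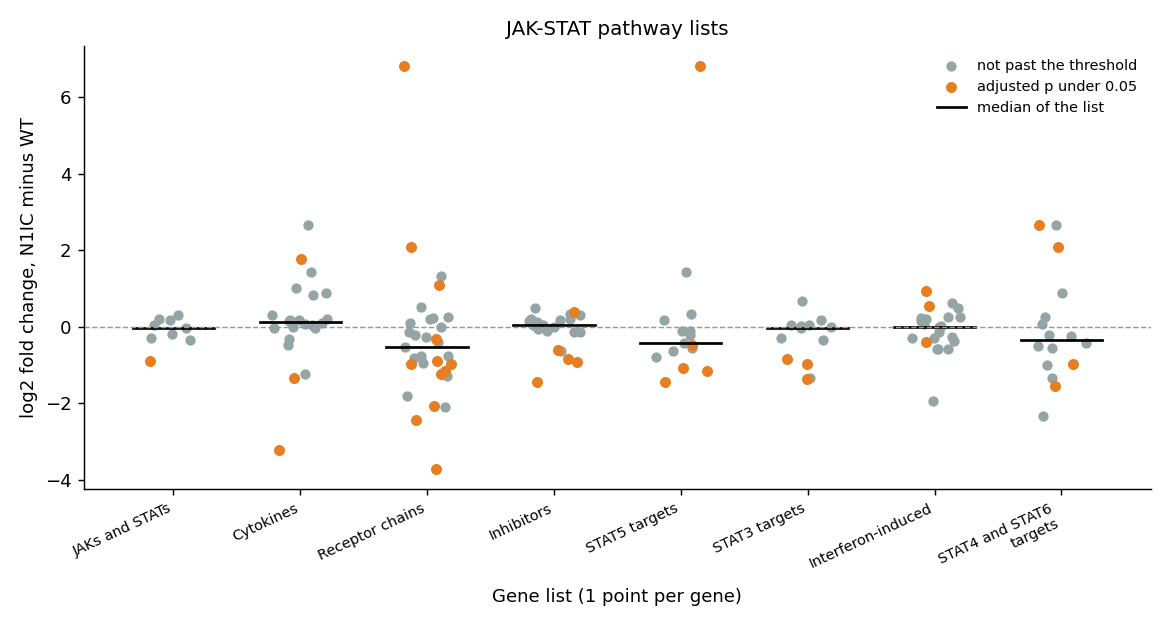
Log2 fold change, N1IC minus WT, of each measured gene of 8 lists, with genes past the limma threshold in orange and a black line for the median of the list. The 9 JAK and STAT genes lie between -0.90 and 0.32, while receptor chains extend from -3.70 to 6.82 with a median of -0.53.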

How the data were processed

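LSK cells of 3 N1IC and 3 WT mice were profiled on 1 Affymetrix array each, from 5 ng of amplified RNA per the labels' protocols. The deposited values are linear intensities per probe set, which the authors computed with RMA, per the submitters' processing notes, in a version not given in the sources used here. They were taken to log2 for every test, and no gene is called absent.

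Of 45037 probe sets other than controls, 34945 had 1 gene symbol, updated by gene ID through RefSeq. Each of 18193 genes was read from its brightest probe set, by the mean of the 6 arrays. The groups were compared with limma 3.58.1 (R 4.3.3; lmFit, eBayes, two-sided, no covariate), and p-values were adjusted by Benjamini and Hochberg's method across genes and called below 0.05. Residual degrees of freedom numbered 4 and prior ones 2.05. Another fit took each probe set on its own. Log2 fold changes are N1IC minus WT.

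The members and gene lists were chosen with earlier results of these data known. Named genes were all members, up to 6 called genes of each pathway list, up to 2 of each list of other cell types, a set of receptors, inhibitors and targets chosen by name, and the 3 genes closest to each called member. Il2rg, in that set, was not analysed here. Of the lists of other cell types, 7 of 14 B-lineage genes were lower, led by Ebf1 and Cd79a at log2 fold changes of -5.51 and -3.88, and 6 of 13 megakaryocyte and erythroid genes, led by Pf4 and Ppbp. Of 13 mature neutrophil and monocyte genes 2 (Cd14 and Cxcr2) were lower, and of 9 natural killer cell genes 1 (Nkg7) was higher. Beside these lists, 8.31% of all genes were lower and 3.47% higher. The median log2 fold change of the natural killer list was -1.25, opposite in sign to that of Nkg7. Robo4 and Meis1 led the stem cell list, Csf3r and Cebpa the granulocyte-macrophage list, and Lat and Ptcra the T-lineage list.

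Same-numbered arrays of the 2 groups had deviations from their group means that correlated at -0.09, -0.07 and 0.07, so the numbers were not taken to pair mice. Xist and Y-linked genes matched the sex label on all 6 arrays. Alternatives were a replicate block, sex as a covariate, quantile normalization again, median centring, the brighter 60% of genes, the mean of all probe sets, an intensity trend, array weights, log2 of the value plus 16, and leaving out each array. Promoters were aligned with Biopython 1.88.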

Additional observations from a re-analysis of the deposited data

How the results depend on the processing

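The call on Jak3 held in 9 of 15 alternatives and its sign in all 15. A lost call does not show that the groups do not differ. With the replicate number as a block, 357 genes were higher and 936 lower, with 2 cytokines higher and 1 lower, 0 inhibitors higher, 0 interferon-induced genes higher and 0 lower, and 0 of the 19 probe sets higher and 1 lower. There the dimmer probe set of Stat5a lost its call and the probe set of Jak3 passed. The numbers were not taken to pair mice, though a pairing is not excluded. The cause of these and the following changes was not tested. With sex as a covariate, which leaves 1 WT array to set against N1IC, 116 genes were higher and 333 lower. Of the members 0 genes were lower and 0 probe sets higher, and the lists had 0 cytokines higher and 1 lower, 1 receptor chain higher and 3 lower, 0 inhibitors higher and 0 lower, 1 STAT5 target and 0 STAT3 targets lower, 0 interferon-induced genes higher or lower, and 1 STAT4 or STAT6 target higher and 1 lower. In the same fit 5 T-lineage and 0 natural killer genes were higher, and 2 granulocyte-macrophage, 1 mature myeloid and 6 stem cell genes lower. With quantile normalization again 0 inhibitors and 0 natural killer genes were higher, and 3 member probe sets. With median centring 0 inhibitors and 2 member probe sets were higher. On the brighter 60% of genes 0 cytokines, 0 inhibitors and 3 member probe sets were higher, and 2 interferon-induced genes, 1 mature myeloid gene and 1 member probe set lower. With the mean of all probe sets 1 member (Stat5a) was higher and 2 interferon-induced genes lower. With an intensity trend 2 cytokines, 0 inhibitors, 2 STAT5 targets, 2 natural killer genes and 0 member probe sets were higher, and 2 interferon-induced genes and 1 member probe set lower. With array weights 0 members and 2 interferon-induced genes were lower, and with log2 of the value plus 16, 0 cytokines were higher.

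Without each array in turn, 332 to 509 genes were higher and 835 to 1420 lower, with 0 to 1 members lower and 0 to 2 member probe sets higher. Cytokines had 0 to 2 higher and 1 to 2 lower, receptor chains 5 to 10 lower, inhibitors 0 higher and 0 to 3 lower, STAT5 targets 1 to 3, STAT3 targets 1 to 4 and STAT4 or STAT6 targets 1 to 3 lower, and interferon-induced genes 1 to 2 higher and 0 to 1 lower. T-lineage genes had 5 to 11 higher, granulocyte-macrophage genes 4 to 9 lower, mature myeloid genes 1 to 11 lower and natural killer genes 0 to 1 higher and 0 to 4 lower. The 11 and the 4 were found without WT replicate 1.

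Signs turned only for values that passed under none of these alternatives. The gene Stat4 and its probe set turned to 0.149 with sex as a covariate, and with array weights to 0.0123 and 0.0124. Without 1 array their log2 fold change ran from -0.107 to 0.0408, above 0 without N1IC replicate 2, WT replicate 1 or WT replicate 3. The gene Irf9 turned to 0.00841 with quantile normalization again, 0.00981 with median centring and 5.01e-06 with log2 of the value plus 16, and ran from -0.182 to 0.139 without 1 array. The gene Sh2b3 turned to -0.0264 with the mean of all probe sets. Without 1 array the gene Usp18 ran from -0.0231 to 0.385, the gene Stat2 and its brighter probe set from -0.314 to 0.00876, and the dimmer one from -0.0525 to 0.413. The dimmer probe set of Jak2 ran from -0.0648 to 0.102, and the least bright one of Jak1 from -0.0154 to 0.506.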

Other observations

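Genes of the lists that the naming rule did not pick are given here as values, chosen after they were seen. Ifng, the gene of interferon gamma, was at 9.65, 8.13 and 9.09 in N1IC, against 4.05, 7.12 and 7.66 in WT. The groups do not overlap, but WT replicate 1 lay far below the other WT arrays and the test was not passed (adjusted p = 0.149 by limma). Gzma, a granzyme of cytotoxic cells, was at 12.45, 13.64 and 13.23 in N1IC, against 6.69, 10.63 and 10.12 in WT, with WT replicate 1 again the lowest (adjusted p = 0.0659 by limma). Il2rb, the beta chain of the interleukin 2 and 15 receptors, was at 5.06, 5.79 and 5.55 in N1IC, against 5.21, 8.41 and 8.21 in WT. Its high levels were on WT replicates 2 and 3 alone, and it did not pass (adjusted p = 0.250 by limma). Mx1, the interferon-induced gene whose promoter drives Cre here, was at 6.92, 6.08 and 6.70 in N1IC, against 7.81, 8.12 and 9.54 in WT, without overlap and short of the threshold (adjusted p = 0.0565 by limma).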
